A study of Mus musculus with 6 samples.

Results

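The transcripts of the major secreted proteins of saliva were followed in the submandibular gland, one of the large salivary glands. The group was fixed by name as 10 genes, Prol1, Pip, Car6, Smr2, Smr3a, Muc19, Smgc, Dcpp1, Lpo and Amy1, out of 19505 named genes on the array, with the probe set of highest mean standing for a gene. Of the 10 names, 8 had a probe set of their own, each a single one. Muc19 is held in the RefSeq gene table as another name of the Smgc gene, so both names lead to the same probe set and their transcripts cannot be told apart here. Dcpp1 had no probe set named in the platform annotation and is represented below only by its close relative Dcpp3, which is not one of the 10.

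Glands came from 3 Myd88-/- and 3 Myd88+/+ mice, all female, all 10 weeks old and all on the NOD.B6 background given by the strain labels. Myd88 is the adaptor protein of most Toll-like receptors and of the interleukin-1 receptor family, and NOD mice develop lymphocyte infiltrates in their salivary glands. Each mouse gave 1 Clariom S array, which reads whole transcripts through short probes, and the values deposited by the authors are on the log2 scale, from robust multi-array averaging (RMA). The replicate numbers name mice. Litter and cage are not given in the labels, so a p-value measures only the spread between these mice, and precision is limited by how few arrays there are.

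Saliva is made in secretory end pieces, the acini, and modified in ducts. Acinar cells devote most of their protein synthesis to a few secreted products, which are packed into granules and released on nerve stimulation. Mucins lubricate, carbonic anhydrase buffers acid, peroxidase and other antimicrobial proteins restrain microbes and amylase digests starch. The 3 large salivary glands share this plan and differ in their products, with serous products such as amylase typical of the parotid gland and mucous products typical of the sublingual gland, which lies against the submandibular gland.

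The 8 measured genes fell into 2 sets far apart on the array's scale, and the division was the same in both genotypes. Prol1, Pip and Car6 sat on the ceiling of 19.93 on all 6 arrays. Lpo and Smgc lay just under it, between 18.78 and 19.83. Smr2, Smr3a and Amy1 lay between 6.05 and 6.95, close to the background probe sets of the array, which ran from 2.95 to 6.85 with a median of 5.55. The label of major saliva proteins therefore fits the signal of 5 of the 8 measured genes, and Smr2, Smr3a and Amy1 gave little signal in these female glands. Levels of different probe sets depend on their probes, so the order within each set is not an order of transcript abundance.

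**Figure D1:**
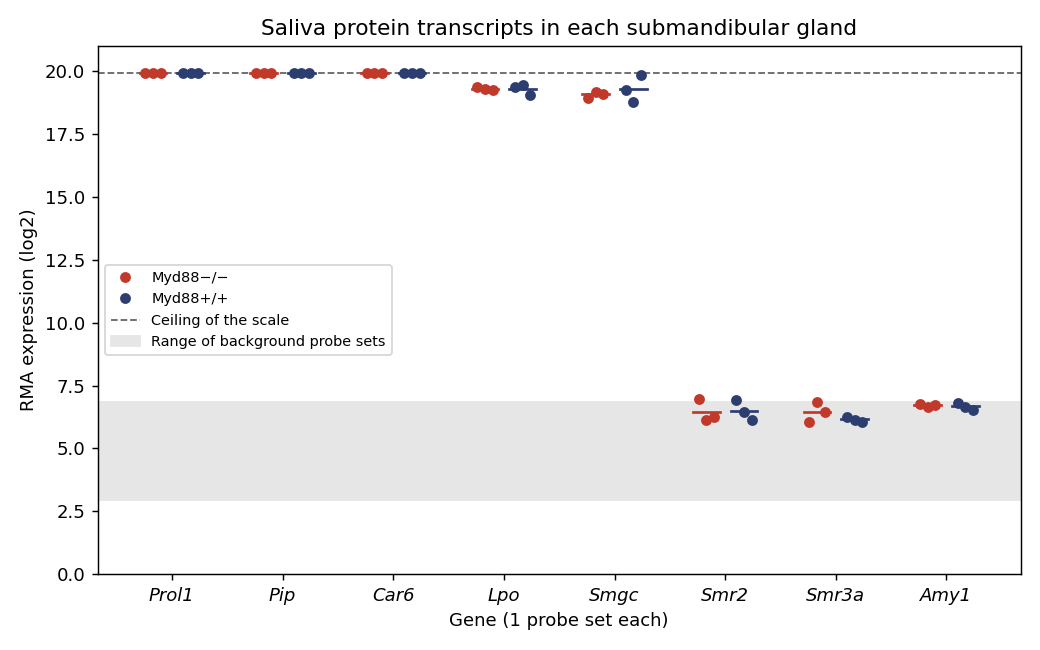
Log2 RMA expression (y axis) of the 8 genes with a probe set (x axis), 3 Myd88-/- glands left of 3 Myd88+/+ glands for each gene, with points for mice and short bars for group means. Prol1, Pip and Car6 lie on the dashed ceiling at 19.93 on all 6 arrays, Lpo and Smgc just below it, and Smr2, Smr3a and Amy1 at or near the grey range of the 23 background probe sets.

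None of the 5 genes below the ceiling passed the test between genotypes. Over all 22206 tested probe sets, limma's test called 0 at a Benjamini-Hochberg adjusted p under 0.05 (percent called 0), and accordingly 0 of the 5 genes below the ceiling. At an unadjusted p under 0.05 limma counted 2232 probe sets (10.1%), 999 higher (4.5%) and 1233 lower (5.55%) in Myd88-/- glands, against 0 of these 5 genes. Non-overlapping genotypes were counted in 3351 probe sets (15.1%), 1740 higher (7.84%) and 1611 lower (7.25%), and in 0 of the 5 genes. The median log2 difference of the 5, Myd88-/- minus Myd88+/+, was 0.01, beside 0.02 over all tested probe sets. In whole tissue, fewer cells of a type and less RNA per cell cannot be told apart.

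The lubricating mucin of mouse submandibular saliva is encoded by Prol1, which RefSeq also lists as Muc10. It read 19.93 in Myd88-/- replicates 1, 2 and 3 and 19.93 in Myd88+/+ replicates 1, 2 and 3. Pip, a small secreted protein that binds bacteria, and Car6, the secreted carbonic anhydrase, had the same reading on every array. A value on the ceiling is a lower bound on the signal, so no fold is given for these 3 genes, and no difference between genotypes could have been seen. The ceiling is a linear value of 999952. It was reached on all 6 arrays by 19 of the 22206 tested probe sets (0.0856%), 12 of them named, and on some arrays only by 5 more. Besides Prol1, Pip and Car6 the named ones included the mucin-like gene Mucl2, the tissue kallikrein gene Klk1 and the androgen-binding protein genes Scgb1b27 and Scgb2b27, which encode secreted products. The ceiling was not limited to secreted products, since Eef1a1, a translation elongation factor, and Pabpc1, which binds poly(A) tails, were on it too.

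Lpo encodes lactoperoxidase, which uses hydrogen peroxide to turn thiocyanate into an antimicrobial oxidant. It read 19.36, 19.31 and 19.23 in Myd88-/- replicates 1, 2 and 3, against 19.35, 19.46 and 19.05 in Myd88+/+ replicates 1, 2 and 3. The Myd88-/- values all lay inside the span of the Myd88+/+ values. Lpo averaged 19.30 ± 0.06 over Myd88-/- mice and 19.29 ± 0.21 over Myd88+/+ mice (SD, n = 3 each). Limma put the log2 difference at 0.01, with a standard error (SE) of 0.17 and an adjusted p of 0.992. Its 95% interval ran from -0.38 to 0.40, that is from 0.768 to 1.32 times the Myd88+/+ level on the reported scale. Without Myd88+/+ replicate 3, the lowest of the 6 values, the difference was -0.11.

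Smgc encodes a secreted glycoprotein of developing submandibular acini, and its locus also gives rise to the gel-forming mucin Muc19 of mucous cells. Its log2 values were 18.94, 19.18 and 19.10 in Myd88-/- replicates 1, 2 and 3, against 19.27, 18.78 and 19.83 in Myd88+/+ replicates 1, 2 and 3. The highest and the lowest of the 6 values were both from Myd88+/+ glands, and the Myd88-/- values lay between them. Smgc averaged 19.07 ± 0.12 over Myd88-/- mice and 19.29 ± 0.52 over Myd88+/+ mice (SD, n = 3 each). The log2 difference was -0.22 with an SE of 0.25 and a 95% interval from -0.79 to 0.35, or 0.577 to 1.28 times the Myd88+/+ level (limma adjusted p = 0.803). Without Myd88+/+ replicate 3 it was 0.05, so the sign of the difference rested on that mouse.

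**Figure D2:**
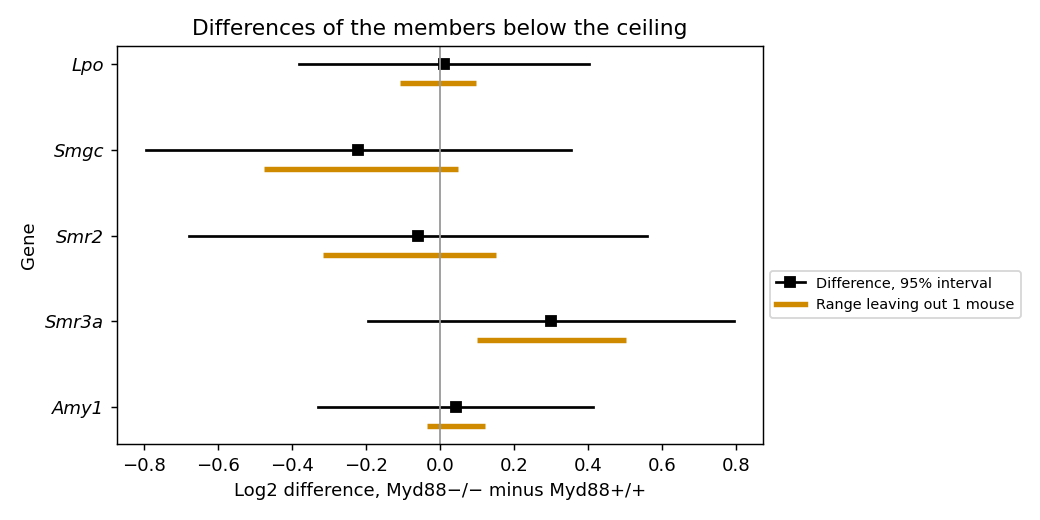
Log2 difference, Myd88-/- minus Myd88+/+ (x axis), of the 5 genes below the ceiling (y axis). Squares and black lines give limma's estimate and 95% interval, and orange bars the range of the difference when 1 mouse is left out. All 5 intervals cross 0, and those of Smgc (-0.79 to 0.35) and Smr2 (-0.68 to 0.56) are among the wider ones.

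Near the top of the scale the spread between mice could still be measured. The 27 tested probe sets with a mean above 18 that never touched the ceiling had a median within-genotype SD of 0.168, against 0.245 for the 5056 probe sets between 8 and 12. Lpo, at 0.157, lay near that median, and Smgc, at 0.38, above the 90th percentile of 0.375. Identical readings were not limited to the ceiling: Crisp3, a cysteine-rich secretory protein of saliva, read 19.80 on all 3 Myd88-/- arrays, against 19.76, 19.80 and 19.80 in Myd88+/+ replicates 1, 2 and 3. The position of a probe set below 19.93 therefore does not by itself show that it was free of saturation, and differences of Lpo and Smgc may be compressed, which was not tested.

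**Figure D3:**
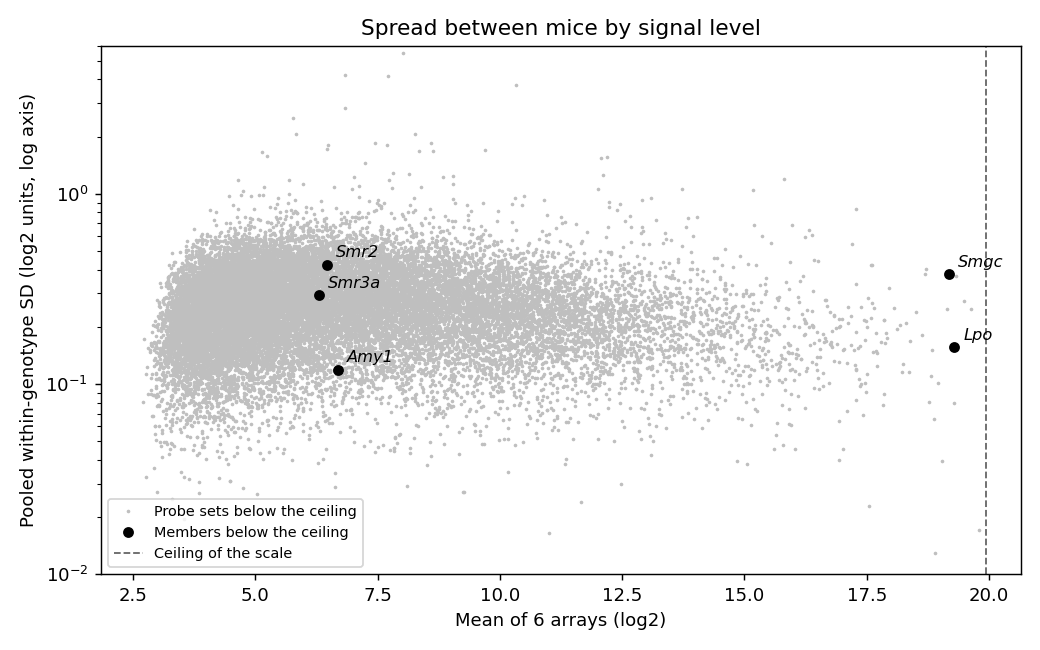
Pooled within-genotype SD of the log2 values (y axis, log scale) against the mean of the 6 arrays (x axis). Grey points are the tested probe sets that never reached the ceiling, and black points the 5 genes below the ceiling, with Smgc at 0.38 and Lpo at 0.157 near the top of the scale.

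Smr2 and Smr3a encode small secreted proteins named for their induction by androgen in the submandibular gland. Smr2 read 6.95, 6.13 and 6.24 in Myd88-/- replicates 1, 2 and 3, against 6.92, 6.46 and 6.12 in Myd88+/+ replicates 1, 2 and 3. The first mouse of each genotype was the highest of its group, and the groups overlapped nearly fully. The log2 difference was -0.06 with an SE of 0.27 (limma adjusted p = 0.961), with a 95% interval from -0.68 to 0.56.

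Smr3a read 6.05, 6.85 and 6.46 in Myd88-/- replicates 1, 2 and 3, against 6.26, 6.14 and 6.06 in Myd88+/+ replicates 1, 2 and 3. Myd88-/- replicate 1 was the lowest of all 6 mice, while the other Myd88-/- mice were the highest pair. The log2 difference of 0.30 had an SE of 0.22 and a 95% interval from -0.19 to 0.79 (limma adjusted p = 0.678). Without Myd88-/- replicate 1 it was 0.50 and without Myd88-/- replicate 2 it was 0.10, and in neither case did it pass. Of the 6 values, 2 of Smr2 and 1 of Smr3a lay above the highest reading of any background probe set.

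Prol1, Smr3a and Smr2 are neighbours on chromosome 5, in a row that also holds casein and tooth enamel genes. Between Csn3, the kappa-casein gene, and Amtn, an enamel gene, RefSeq orders Cabs1, Smr3a, Smr2, a predicted gene and Prol1. Prol1 was the only gene among the 10 nearest to it, 5 on each side, to reach the ceiling. Csn3 read 4.58, 4.61 and 4.62 in Myd88-/- glands and 4.57, 4.49 and 4.46 in Myd88+/+ glands, and Amtn 4.70, 4.20 and 4.36 in Myd88-/- glands and 4.17, 4.38 and 4.29 in Myd88+/+ glands. The neighbours of each gene were looked up after the values had been seen. The 120 bases before the transcript start of the 3 genes, from RefSeq on build GRCm38.p6, are shown because they set a promoter of a gene on the ceiling beside those of a pair of neighbours near background. Capitals mark the letters TATAA on the printed strand, the core of a TATA box.
Prol1, chr5:88317192-88317311, plus strand: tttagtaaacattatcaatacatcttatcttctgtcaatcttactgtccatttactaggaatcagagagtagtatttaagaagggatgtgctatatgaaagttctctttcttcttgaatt
Smr2, chr5:88086436-88086555, plus strand: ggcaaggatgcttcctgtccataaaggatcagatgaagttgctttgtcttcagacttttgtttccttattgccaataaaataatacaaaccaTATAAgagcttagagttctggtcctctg
Smr3a, chr5:88002405-88002524, plus strand: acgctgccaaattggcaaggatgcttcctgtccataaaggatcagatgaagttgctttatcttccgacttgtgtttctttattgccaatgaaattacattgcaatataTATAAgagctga

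The Smr2 and Smr3a windows are near copies. In the 250 bases before each start, 211 of 231 aligned positions were identical (91.3%). TATAA, searched on both strands, stood once in the printed window of Smr2 and once in that of Smr3a, and the letters were not in the window of Prol1. They began 28 bases before the start in Smr2 and 12 bases before it in Smr3a. Only these exact letters were searched, at any position in the window. The same window of Pip, a gene on the ceiling, and that of Smgc, just below it, each held TATAA once on the printed strand. Those of Car6, on the ceiling, and Lpo, just below it, held it on neither strand. Amy1, near background, had a window with it, 63 bases before the start, and another without. Windows with it and windows without it thus occurred at both ends of the scale. Of 32851 RefSeq promoters, 11.8% held TATAA on either strand in the same 120 bases. A match of letters is a description and not a shown binding site.

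Pip and Lpo also differed from the relatives that lie next to them. Downstream of Pip on chromosome 6 follow Sval2, Sval1, Sval3 and Sva, genes of the seminal vesicle antigen family. Sval2 read 6.53, 6.59 and 6.74 in Myd88-/- glands and 6.47, 7.003 and 6.77 in Myd88+/+ glands, and the other 3 genes read at most 4.34 on any array. Lpo lies on chromosome 11 among other peroxidase genes. Mpo, the peroxidase of neutrophils, read 6.54, 6.15 and 6.06 in Myd88-/- glands and 5.81, 5.51 and 6.16 in Myd88+/+ glands, and Epx, that of eosinophils, read 4.24 or less on every array. No other gene among the 5 neighbours on either side of Pip, Car6 or Lpo reached the ceiling, as far as they had a probe set.

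Amy1, the amylase gene of saliva, whose main site in mice is the parotid gland, read 6.77, 6.64 and 6.72 in Myd88-/- replicates 1, 2 and 3, against 6.83, 6.66 and 6.52 in Myd88+/+ replicates 1, 2 and 3. All 6 values lay within the range of the background probe sets. The log2 difference was 0.04 with an SE of 0.16 (limma adjusted p = 0.952), with a 95% interval from -0.33 to 0.41. Amy2a5, a pancreatic amylase gene 5 places from Amy1 on chromosome 3, read 5.21, 4.58 and 5.35 in Myd88-/- glands and 5.14, 5.09 and 4.92 in Myd88+/+ glands. Amylase genes are close copies, so probes can be shared between them and the separate values are uncertain.

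Dcpp1 encodes a protein of the demilune cells of the sublingual gland and of the parotid gland. RefSeq places Dcpp1, Dcpp2 and Dcpp3 side by side on chromosome 17, and only Dcpp3 had a named probe set. Dcpp3 read 6.59, 4.80 and 5.31 in Myd88-/- replicates 1, 2 and 3, against 4.65, 4.70 and 14.91 in Myd88+/+ replicates 1, 2 and 3. A single mouse was thus far above the others, and the other 5 lay within the range of the background probe sets. The log2 difference was -2.52 with an SE of 2.28 (limma adjusted p = 0.737) and turned to 0.89 without Myd88+/+ replicate 3. The promoters of Dcpp1 and Dcpp3 are shown, with TATAA in capitals, because they describe how alike the copies are before the transcript start. Probes read the transcript, so likeness of promoters does not show that probes are shared.
Dcpp1, chr17:23880756-23880875, plus strand: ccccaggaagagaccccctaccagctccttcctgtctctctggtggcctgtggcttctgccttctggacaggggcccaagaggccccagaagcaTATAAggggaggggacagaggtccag
Dcpp3, chr17:23917338-23917457, plus strand: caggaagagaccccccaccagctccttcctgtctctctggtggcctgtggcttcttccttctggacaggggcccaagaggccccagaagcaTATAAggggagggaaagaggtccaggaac

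In the 250 bases before each start, 241 of 247 aligned positions of Dcpp1 and Dcpp3 were identical (97.6%). Whether the named probe set reads Dcpp1 or Dcpp2 as well was not tested.

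Other genes of mucous cells were mixed in the same mouse. Of the 15 measured genes of the list of mucin glycan enzymes and mucous cell genes, 6 were highest in Myd88+/+ replicate 3, which had the highest Smgc value, 19.83, and the highest Dcpp3 value. It was also the highest in Galnt12, an enzyme that starts mucin O-glycans, at 6.38, still within the range of the background probe sets, against 3.60 to 4.31 in the other 5 mice. B3gnt6, which builds the core 3 branch of such glycans and was named after its values were seen, read 8.56 in that mouse, against 3.83 to 4.71 in the other 5. Gcnt1, another branching enzyme, was lowest in that mouse, at 14.52. Muc5b, Gcnt3 and Agr2, the other measured genes of the sublingual gland list, did not share the pattern. Muc5b read 5.66, 4.60 and 5.33 in Myd88-/- glands and 4.71, 4.86 and 5.43 in Myd88+/+ glands, and Agr2 4.63, 4.41 and 4.48 in Myd88-/- glands and 4.79, 4.43 and 4.21 in Myd88+/+ glands. The mean log2 level of the 6 measured genes of the 9 on that list was 6.91 to 7.45 in Myd88-/- glands, against 6.94, 6.85 and 9.18 in Myd88+/+ replicates 1, 2 and 3, and 3 of the 6 were highest in the last of these. Without Dcpp3, a choice made after seeing the data, the mean of the other 5 was 7.62, 7.33 and 7.36 in Myd88-/- glands, against 7.39, 7.27 and 8.04 in Myd88+/+ glands. Gcnt3 and Agr2 were at or under the background median of 5.55 on all arrays.

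Leukocyte genes were high in that mouse too. All 6 of 6 measured T cell markers and 8 of 9 measured macrophage markers were highest in Myd88+/+ replicate 3, and 4 of 7 measured B cell markers. The share of all tested probe sets highest in that mouse was not counted. These counts, and those of the mucous and sublingual lists above, therefore have no such comparison. Cd3e, a chain of the T cell receptor complex, read 5.27, 4.74 and 4.91 in Myd88-/- glands and 5.13, 5.85 and 8.26 in Myd88+/+ glands. The mean log2 level of the 6 measured T cell markers was 5.60 to 6.06 in Myd88-/- glands and 5.88 to 7.40 in Myd88+/+ glands. That of the 9 measured macrophage markers was 7.28 to 7.52 in Myd88-/- glands and 8.12 to 9.19 in Myd88+/+ glands. The macrophage difference was not limited to that mouse: the median log2 difference of the 9 was -1.23 over all mice and -0.94 without Myd88+/+ replicate 3. At an unadjusted p under 0.05, 8 of the 9 were lower in Myd88-/- glands, beside 5.55% of all tested probe sets, and 6 did not overlap, beside 7.25%, with 0 adjusted calls. The part of tissue from a neighbouring gland or of infiltrate in the Smgc and Dcpp3 values was not tested.

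**Figure D4:**
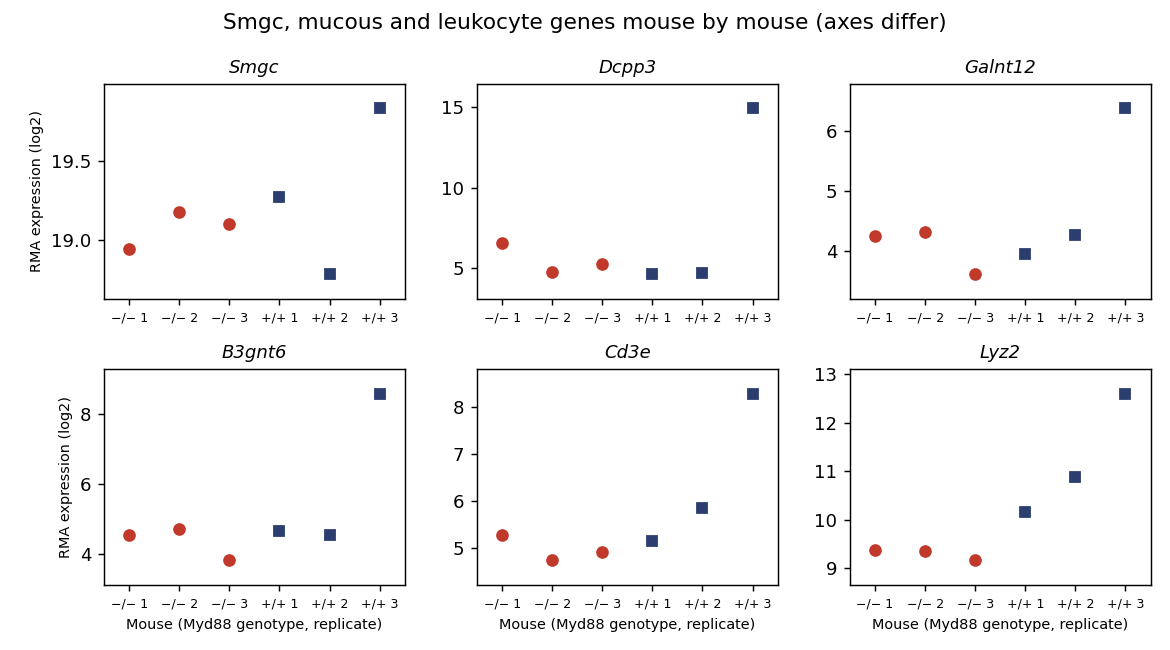
Log2 RMA expression (y axes, each panel with its own scale) of Smgc, the mucous genes Dcpp3, Galnt12 and B3gnt6, the T cell gene Cd3e and the macrophage gene Lyz2 in each mouse (x axis), with Myd88-/- mice as circles left of Myd88+/+ mice as squares. The genes shown were chosen with their values known, and Myd88+/+ replicate 3 is highest in every panel, at 19.83 for Smgc and 14.91 for Dcpp3. That follows from the choice of panels. Of the 15 measured genes of the mucous list 6 were highest in that mouse, while Gcnt1 (14.52) and Agr2 (4.21) were lowest in it.

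The genes whose profile over the 6 arrays was most like that of Smgc, the measured member with the widest range (1.05), were Slc25a32, a mitochondrial carrier, at r = 0.985, the stress-induced gene Nupr1 at 0.983, the RNA helicase gene Ddx52 at 0.982, the surface protease gene Adam9 at 0.974 and the kinetochore gene Zwint at 0.969. They were chosen as the highest Pearson r over 6 arrays among 9392 candidate genes, and they share the arrays and their normalization with Smgc, so these values are a description only. Nupr1 read 17.30, 17.52 and 17.44 in Myd88-/- glands and 17.64, 17.25 and 18.41 in Myd88+/+ glands, again highest in Myd88+/+ replicate 3.

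Other secreted proteins of saliva were read from a list of 37 names, of which 28 had a probe set and 4 of these sat on the ceiling on all arrays. Of the 24 left, 16 had a positive and 8 a negative difference, with a median of 0.07, and 0 passed limma's adjusted test. At an unadjusted p under 0.05 there were 2 higher, beside 4.5% of all tested probe sets, and 1 lower, beside 5.55%. The groups did not overlap in 6, all higher in Myd88-/- glands, beside 7.84% of all tested probe sets. Of these 6, 5 (Cst10, Sval1, Bpifb1, Csn3 and Zg16) lay within the range of the background probe sets on all arrays; Bpifb1, Csn3 and Zg16 were named after their values were seen. The median of the background probe sets was itself 5.57 to 5.71 on Myd88-/- arrays, against 5.46 to 5.52 on Myd88+/+ arrays, and its part in these differences was not tested. The 2 higher ones were Wfdc12, a protease inhibitor, with 1.27 and Cst10, a cystatin, with 0.87. Cst10 read 6.52, 5.65 and 5.81 in Myd88-/- glands and 5.27, 5.49 and 4.63 in Myd88+/+ glands, around the background median. Sval1, the fourth by p, had a log2 difference of 0.34 (limma adjusted p = 0.512).

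The lower one was Bpifa2, the parotid secretory protein. It read 5.55, 5.78 and 6.38 in Myd88-/- replicates 1, 2 and 3, against 9.35, 10.07 and 6.27 in Myd88+/+ replicates 1, 2 and 3. The first and second Myd88+/+ mice were above the rest and Myd88+/+ replicate 3, the mouse high in Smgc and Dcpp3, was not. The log2 difference was -2.66 (limma adjusted p = 0.388), and without Myd88+/+ replicate 3 it was -3.81 with an adjusted p of 0.0242, leaving out the mouse nearest to the Myd88-/- glands. Of the other genes of the parotid gland list, Amy1 above and Prh1 and Prpmp5, which encode proline-rich proteins, read between 5.01 and 6.98 on all arrays. They did not share this pattern. Car6, also on that list, sat on the ceiling of 19.93 on all 6 arrays and could not have shown it.

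Some genes listed as partners of Lpo and Car6 had larger differences than Lpo, though none passed. Those named here are the ones of smallest unadjusted p in the list. Lpo lay just under the ceiling, where differences may be compressed, so the sizes cannot be compared directly. In a list of 18 peroxidase and carbonic anhydrase partners, 15 were measured, with 7 positive and 8 negative differences, 0 adjusted calls, 1 gene higher and 1 lower at an unadjusted p under 0.05, beside 4.5% and 5.55% of all tested probe sets. Car12, a carbonic anhydrase of the cell surface, read 11.92, 13.66 and 12.74 in Myd88-/- glands, against 13.94, 13.91 and 14.11 in Myd88+/+ glands. All 3 Myd88-/- values lay below all Myd88+/+ values, and the log2 difference was -1.21 with an SE of 0.37 (limma adjusted p = 0.388). It was -0.79 without Myd88-/- replicate 1 and -1.66 without Myd88-/- replicate 2. Car2, the cytosolic form, read 10.98, 11.71 and 10.47 in Myd88-/- glands, against 10.12, 10.13 and 10.65 in Myd88+/+ glands, a difference of 0.75 (limma adjusted p = 0.464) that was 0.42 without Myd88-/- replicate 2 and 1.04 without Myd88-/- replicate 3. Car13, also cytosolic, had 0.41 and Duoxa2, the maturation factor of a hydrogen peroxide source, had -0.42.

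Enzymes that build mucin glycans and genes of mucous cells showed both directions. Of 16 names 15 were measured, with 8 positive and 7 negative differences, a median of 0.01 and 0 adjusted calls. At an unadjusted p under 0.05 there were 3 higher and 1 lower, beside 4.5% and 5.55% of all tested probe sets. Gcnt1, which adds the core 2 branch, read 15.78, 15.73 and 15.10 in Myd88-/- glands, against 14.79, 14.88 and 14.52 in Myd88+/+ glands. All Myd88-/- values lay above all Myd88+/+ values, and the log2 difference was 0.81 (limma adjusted p = 0.368). Galnt7, which extends partly glycosylated mucin, had -0.49 (limma adjusted p = 0.453), and Ern2 and Tff2, both of mucous epithelium, had 0.42 and 0.41, with all values within the range of the background probe sets.

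Genes of acinar identity and granule release had small differences. Of 24 names 23 were measured, with 6 positive and 17 negative differences, a median of -0.11, 0 adjusted calls and 1 lower at an unadjusted p under 0.05, beside 5.55% of all tested probe sets. That gene was Stxbp2, which binds syntaxins in exocytosis, with -0.41 (limma adjusted p = 0.492). The transcription factors Elf5, Creb3l1 and Foxq1 had 0.48, -0.28 and -0.28. Leaving out 1 mouse gave 0.29 (without Myd88+/+ replicate 2) to 0.69 (without Myd88+/+ replicate 1) for Elf5, -0.39 (without Myd88+/+ replicate 3) to -0.10 (without Myd88+/+ replicate 1) for Creb3l1 and -0.44 (without Myd88+/+ replicate 2) to -0.15 (without Myd88-/- replicate 1) for Foxq1, which lay within the range of the background probe sets. In the same list Aqp5, the water channel of acini, had -0.14 and Bhlha15, an acinar transcription factor, -0.09. Granular duct products were measured in 10 of 17 names, with 3 more on the ceiling on all arrays and 2 of the 10 on it on some arrays, and 0 adjusted calls. The median difference of the 8 that never reached it, counted so after the data were seen, was 0.06, and the kallikrein genes Klk1b16, Klk1b1, Klk1b9 and Klk1b24 had 0.46, 0.22, 0.12 and -0.07. Klk1b16 was 0.29 without Myd88-/- replicate 2 and 0.78 without Myd88-/- replicate 1, and Klk1b9 was 0.01 and 0.32 without these mice. Closely related kallikrein genes can share probes, so these separate values are uncertain.

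Markers of other tissues, and of the ducts and myoepithelium, were read beside these genes. The mean log2 level of 9 pancreatic acinar genes was 4.87 to 5.17 in Myd88-/- and 4.82 to 4.94 in Myd88+/+ glands, under the background median, and that of 8 skeletal muscle genes was 4.87 to 4.99 in Myd88-/- and 4.51 to 4.88 in Myd88+/+ glands. That of 7 adipose genes was 5.54 to 5.62 in Myd88-/- and 5.26 to 5.86 in Myd88+/+ glands. Single genes lay above these means. Fabp4 of the adipose list read 9.69 to 10.26 in Myd88-/- and 9.185 to 10.49 in Myd88+/+ glands. Ckm of the muscle list read 6.61 to 6.94 in Myd88-/- and 7.22 to 7.54 in Myd88+/+ glands, while 6 of the 8 muscle genes had a positive difference. The median difference of 10 duct markers was -0.26 and that of 8 myoepithelial markers -0.59, or -0.40 and -0.39 without Myd88+/+ replicate 3. The Myd88 probe set itself had a log2 difference of -0.53 (limma adjusted p = 0.462), or -0.33 without Myd88-/- replicate 2, and its position relative to the targeted exons is unknown here.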

How the data were processed

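The deposited table holds log2 expression values made by the authors with RMA, per the labels, in the Transcriptome Analysis Console, per the submitters' processing notes. Software version, RMA variant and genome build: not given in the sources used here. The values (2.26 to 19.93) themselves show the log2 scale. RMA shrinks differences near background. Values on the ceiling hold no difference, and the step that set the ceiling is not given here. Of 28846 probe sets, 6640 controls were left out and 22206 tested, of which 19572 had 1 gene symbol, 0 several and 2634 none here. All 19572 Entrez identifiers matched RefSeq of GRCm38.p6. Array pairs correlated at r = 0.982 to 0.991.

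Groups came from titles and strain labels. The genotype test used limma 3.58.1 under R 4.3.3 (lmFit, eBayes, no covariates, Benjamini-Hochberg over all tested probe sets, threshold 0.05) and was tested on simulated data. Named genes are all members, the 4 of smallest unadjusted p in each related list, the 2 of smallest p in each marker list (not all described) and the 5 most like the member of widest range. The members and lists were chosen with earlier results of these data known. The deviations of same-numbered mice showed no positive correlation (r = -0.113, -0.155 and -0.0195). With so few mice, and with litter and cage not given, these values cannot decide whether the numbers pair mice. The alternatives were other normalizations, filters on dim probe sets, variance models, the replicate block and leaving out each mouse.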

Additional observations from a re-analysis of the deposited data

How the results depend on the processing

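In all 15 alternative settings 0 of the 5 genes below the ceiling passed limma's adjusted test. With the replicate number as a block, 0 probe sets and 0 of these genes were called. The count of all probe sets called was 0 as reported, 2 with median centring and 4 with robust variances and an intensity trend, and 0 to 5 leaving out 1 mouse. The count of the 5 genes whose groups did not overlap was 0, and 0 to 1 leaving out 1 mouse. The gene was Smgc without Myd88+/+ replicate 2 and Smr3a without Myd88-/- replicate 1. The share of all tested probe sets given above is for all 6 mice. That leaving out 1 mouse was not counted, so the count of 0 to 1 has no comparison and is not read as a result. The near-zero differences changed sign. Lpo was -0.011 with median centring, and -0.11 to 0.10 leaving out 1 mouse. Smr2 was 0.10 with array weights, and -0.31 to 0.15 leaving out 1 mouse. Amy1 ranged from -0.033 to 0.12 and Smgc from -0.47 to 0.048 leaving out 1 mouse. Among other named genes, quantile normalization turned Klk1b24 to 0.0019, Bhlha15 to 0.0077 and Ddx52 to 0.0503, and cyclic loess turned Ddx52 to 0.0267. Leaving out 1 mouse gave -0.15 to 0.0542 for Klk1b24, -0.33 to 0.16 for Bhlha15, -0.21 to 0.0291 for Ddx52, -0.26 to 0.0286 for Aqp5, -4.24 to 0.89 for Dcpp3 and -0.19 to 0.0438 for Slc25a32. The cause of these changes was not tested. No member had a further probe set or lay on the ceiling on some arrays only, so those alternatives gave no value. Signal over background limits Smr2, Smr3a and Amy1, and saturation limits Prol1, Pip and Car6.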

Other observations

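The ceiling was also reached by control probe sets. Of 5222 control probe sets whose identifiers mark them as negative, 2 lay on it on all 6 arrays and 1 on some arrays only.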
